A study of Mus musculus with 10 samples.

Results

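Respiratory complexes II to V of the mitochondrion were followed through 45 nuclear genes. Complex II (succinate dehydrogenase) had 4 genes, complex III (the cytochrome bc1 complex) had 9, cytochrome c had 1, complex IV (cytochrome c oxidase) had 14 and complex V (the ATP synthase) had 17, its inhibitor Atpif1 among them. The genes were chosen by symbol from a list of names, with older and newer Atp5 names counted as the same gene. The rule itself uses no measured value, but the list was chosen with earlier results of these data known. The list found 44 of the 46786 genes measured at 3 months and 45 of the 46977 measured at 12 months, and Cox4i1 was not analysed here at 3 months. RNA came from dissected mouse hearts, 3 labelled Prdm16 knockout and 3 labelled control at 3 months of age, and 2 labelled Prdm16 knockout and 2 labelled control at 12 months. The PRDM16 protein is a zinc-finger regulator of transcription, studied above all in brown fat. The series asks about heart enlargement and mitochondrial failure with age, so each age sets knockout against control hearts. The labels give no strain, no sex, no deleted exon and no promoter that drives the deletion, and nothing that the 2 genotypes share beyond tissue and age. No source used here states that each library is a separate animal, and the p-values cover the spread of these libraries alone.

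These complexes carry electrons to oxygen and turn the resulting proton gradient into ATP. Complex II oxidises succinate and passes electrons to ubiquinone, complex III moves them from ubiquinol to cytochrome c, complex IV hands them to oxygen, and the ATP synthase lets protons back through its membrane ring to make ATP. Heart muscle beats without rest and is packed with mitochondria, so these transcripts are among its most abundant. Most subunits of complexes III to V are nuclear-encoded, a few catalytic or membrane subunits are encoded by mitochondrial DNA, and complex II is wholly nuclear-encoded. Several complex IV subunits exist as a form made in many tissues and a second form made in heart and skeletal muscle.

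Factors that are known to switch on these genes include NRF1, the ETS factor GABPA, the oestrogen-related receptors (ERR) and YY1. Their motifs were searched on both strands in RefSeq promoters (GRCm38.p6, from 250 bases before to 50 bases after the start of the gene), which were found for 36 of the 45 genes. The NRF1 motif (GCGC, any base, then TGCGC) lay in 11 of 36 promoters (30.6%) and in 7.17% of all 17491 promoters, the ETS motif CCGGAAG in 13 (36.1%) and 12.9%, the ERR motif AAGGTCA in 6 (16.7%) and 4.73%, and the YY1 motif AAGATGGCG in 2 (5.56%) and 2.14%. In all, 21 promoters held at least 1 of the 4 motifs, and no matches of different motifs overlapped. A match is a description of letters and not a binding site. The stretches upstream of 5 genes on which the results below turn are printed 5′ to 3′ on the strand of the gene, up to the last base before the start, with the NRF1 and ETS matches on either strand in capitals. Cox6a1 is shown because its direction differed between the ages, Sdha because it was lower in knockout hearts at 3 months while most of the list was higher, and Atp5e because its difference was the largest. Cox8b and Cox7a1, the muscle forms of 2 complex IV subunits, are shown because they hold no match.
Cox6a1 (chr5:115348959-115349128, minus strand, 170 bases): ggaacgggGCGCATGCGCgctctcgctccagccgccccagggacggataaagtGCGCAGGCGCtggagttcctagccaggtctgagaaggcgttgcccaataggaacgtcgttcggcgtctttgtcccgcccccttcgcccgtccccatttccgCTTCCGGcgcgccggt
Sdha (chr13:74350241-74350350, minus strand, 110 bases): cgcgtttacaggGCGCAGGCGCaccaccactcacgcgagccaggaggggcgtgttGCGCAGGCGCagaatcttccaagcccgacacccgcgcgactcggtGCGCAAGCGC
Atp5e (chr2:174464102-174464211, minus strand, 110 bases): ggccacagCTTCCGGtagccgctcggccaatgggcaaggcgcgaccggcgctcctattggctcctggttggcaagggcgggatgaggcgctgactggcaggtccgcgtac
Cox8b (chr7:140900447-140900556, minus strand, 110 bases): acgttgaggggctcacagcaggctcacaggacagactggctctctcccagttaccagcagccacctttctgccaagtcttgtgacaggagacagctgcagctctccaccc
Cox7a1 (chr7:30184061-30184170, plus strand, 110 bases): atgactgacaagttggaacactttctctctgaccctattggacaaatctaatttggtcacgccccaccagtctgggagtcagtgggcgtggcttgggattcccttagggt

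Transcript levels are given as FPKM, which scales fragments by transcript length and by library total, and differences as knockout minus control on the log2(FPKM + 1) scale with the standard error of limma, a scale that understates the change of low genes. Genes averaging 1 FPKM or more at an age were tested, and a gene was called at a Benjamini-Hochberg adjusted p under 0.05 over all genes tested. The libraries summed to 516272 to 718787 FPKM at 3 months, and to 890181 to 1171104 FPKM at 12 months. The steps between low values at 12 months correspond to 21.9 to 31.2 M reads per library, while no such steps gave a depth at 3 months. The targeted gene did not separate the labels at 3 months, with 1.43, 0.760 and 2.03 FPKM in knockout libraries, against 1.44, 2.23 and 1.61 FPKM in control libraries, a log2 difference of -0.22 ± 0.21 (adjusted p = 0.602). At 12 months Prdm16 was lower in both knockout libraries, at 4.02 and 3.58 FPKM in knockout libraries, against 6.31 and 5.05 FPKM in control libraries, a log2 difference of -0.47 ± 0.15 that was not called (adjusted p = 0.340). All directions therefore follow the labels. Of the 10 defining markers of cardiomyocytes none was called, and all but Ryr2 were above 0 in every library. At 3 months Ryr2 had 22.9, 20.7 and 24.8 FPKM in knockout libraries, against 25.9, 0 and 29.1 FPKM in control libraries. The summed level of the 10 was 36739 to 38220 FPKM in knockout and 28668 to 35779 FPKM in control libraries at 3 months. At 12 months it was 68409 to 70501 FPKM in knockout and 65351 to 65431 FPKM in control libraries. Red blood cell genes moved with the labels in opposite directions. At 3 months 5 of 6 tested were called higher (summed 2083 to 3114 FPKM in knockout and 819 to 1114 FPKM in control libraries), and at 12 months 6 of 6 were called lower (1959 to 2160 FPKM in knockout and 10663 to 10798 FPKM in control libraries). Atrial genes summed to 12326 to 28686 FPKM in knockout and 725 to 6205 FPKM in control libraries at 3 months, with 1 of 8 called. Most of that sum was Nppa, the one called (adjusted p = 0.0402), while Myl7 overlapped and was highest in knockout replicate 2, at 113, 2568 and 891 FPKM in knockout libraries, against 84.2, 39.4 and 779 FPKM in control libraries. At 12 months none of the 8 was called. Nppa was higher in both knockout libraries (15104 and 11263 FPKM in knockout libraries, against 3313 and 3234 FPKM in control libraries), whereas Myl4, Myl7, Sln, Bmp10 and Nr2f2 were lower in both, Myl7 at 153 and 749 FPKM in knockout libraries, against 1275 and 1244 FPKM in control libraries. At 12 months Xist stood at 0.0911 and 0.0240 FPKM in knockout libraries, against 33.1 and 31.0 FPKM in control libraries, and the Y-linked Ddx3y at 24.5 and 20.7 FPKM in knockout libraries, against 0.0352 and 0.0114 FPKM in control libraries, so genotype and sex-linked expression cannot be told apart at that age. Of the other marker lists, 2 of 8 lymphocyte and myeloid genes were called higher at 3 months, 2 of 5 brown adipocyte genes lower and 1 of 4 skeletal muscle genes higher at 12 months, and no fibroblast or endothelial gene was called at either age. At 12 months 6 of 7 fibroblast genes were lower on average in knockout hearts, with a median log2 difference of -0.67, and the collagen gene Col3a1 had 139.9 and 90.5 FPKM in knockout libraries, against 402 and 392 FPKM in control libraries (-1.81 ± 0.24, adjusted p = 0.130). The part of these marker differences in the results on the respiratory genes was not tested, and in bulk tissue fewer cells of a type and less RNA per cell cannot be told apart.

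At 3 months nearly the whole list was somewhat more abundant in knockout hearts, and no single gene passed the test. Of the 44 genes tested, 42 were higher in knockout hearts on average and 2 were lower, Sdha and Atp5a1. The median log2 difference was 0.31, where the median over all 12200 genes tested was 0.088 and 65.0% of genes were higher. None of the 44 was called, while 0.746% of all genes tested were called, and the lowest adjusted p among the 44 was 0.151, for Atp5e. At an unadjusted p under 0.05 there were 16 of the 44 and 2224 of all 12200 genes. Every knockout library lay above every control library for 25 of the 44 genes (56.8%), against 20.1% of all genes tested, and every knockout library lay below every control library for 0, against 4.6% of all genes tested. The 42 became 38 after rescaling to TPM (each library summing to the same total), 29 after scaling to the summed FPKM of genes outside mitochondrial DNA and 27 after a correction for transcript length. It was 39 to 42 with any 1 library left out.

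**Figure D1:**
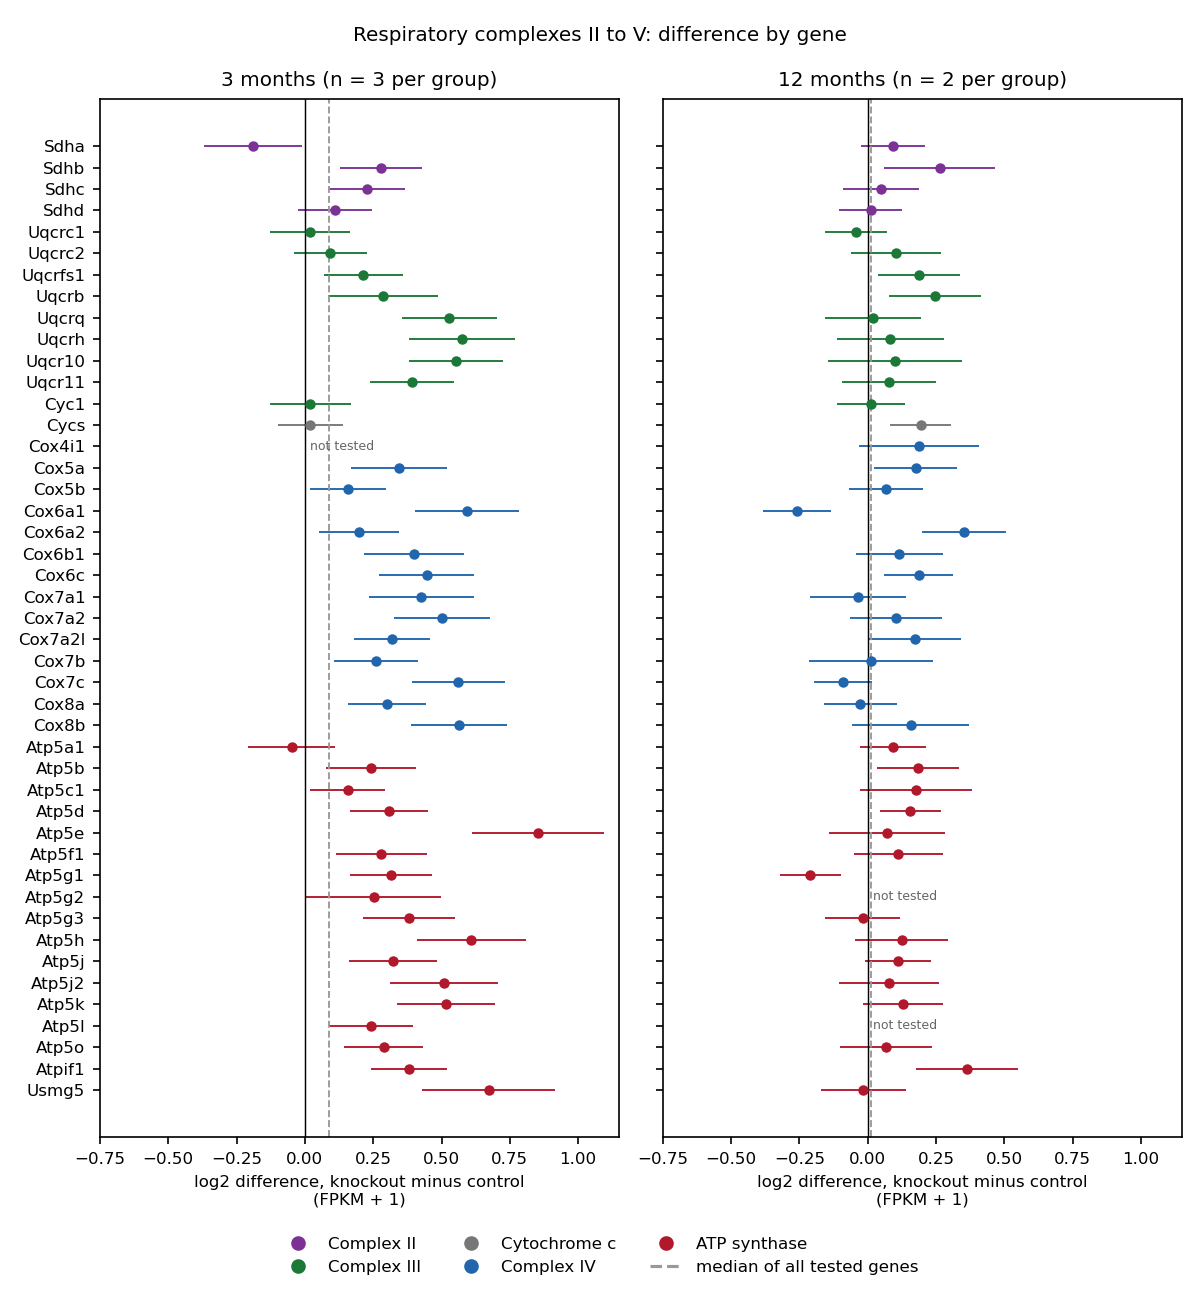
Log2 difference, knockout minus control, on the log2(FPKM + 1) scale for each of the 45 genes at 3 months (left) and 12 months (right), with bars for the standard error, colours for the complex and a dashed line at the median of all tested genes. At 3 months 42 of 44 points lie above 0 and at 12 months 35 of 43, of which 2 are above 0 after rescaling to TPM.

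Complex II had the lowest median of the 4 complexes at 3 months, a log2 difference of 0.17 over 4 genes, 3 of them higher, and the median was -0.069 after the length correction. Sdha, the flavoprotein that oxidises succinate, had 540.3, 422 and 557 FPKM in knockout libraries, against 593, 672 and 474 FPKM in control libraries. The groups overlapped, since control replicate 3 lay below 2 of the knockout libraries, and the log2 difference was -0.19 ± 0.18 (adjusted p = 0.602). Sdhb, the iron-sulphur subunit that takes the electrons from Sdha, had 514, 571 and 478 FPKM in knockout libraries, against 490.0, 423 and 378 FPKM in control libraries. Its difference was 0.28 ± 0.15, with control replicate 1 above knockout replicate 3. The membrane anchors Sdhc and Sdhd hold the ubiquinone site. Sdhc had 393, 425 and 409 FPKM in knockout and 375, 377 and 301 FPKM in control libraries, with every knockout library above every control library (0.23 ± 0.14, adjusted p = 0.420, and -0.044 after scaling to nuclear genes). Sdhd had 352, 362 and 350.3 FPKM in knockout and 376, 321 and 295 FPKM in control libraries, and control replicate 1 was the highest of the 6 libraries (0.11 ± 0.14).

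In complex III all 9 genes were higher in knockout hearts at 3 months, with a median log2 difference of 0.29. For 5 of them every knockout library lay above every control library, against 20.1% of all genes tested. Among other protein-coding genes the share was 48.4% under 750 bases, 45.9% from 750 to under 1500 bases and 22.2% from 1500 to under 3000 bases. The small supernumerary subunits Uqcrh, Uqcr10 and Uqcrq differed by 0.57, 0.55 and 0.53, while the 2 large core subunits Uqcrc1 and Uqcrc2 and the haem-carrying Cyc1 differed by 0.018, 0.093 and 0.020 and overlapped. Uqcrh, the hinge subunit that sits next to cytochrome c1, had 1419.7, 1966 and 1379.7 FPKM in knockout libraries, against 1258, 914 and 1014 FPKM in control libraries, a log2 difference of 0.57 ± 0.19 (adjusted p = 0.192). Uqcr10 had 1485, 1722 and 1326 FPKM in knockout libraries, against 1188, 877 and 1031 FPKM in control libraries (adjusted p = 0.176). In both, the lowest knockout library stood above the highest control library. Uqcrfs1, the Rieske iron-sulphur protein, had 890.4, 968 and 847 FPKM in knockout libraries, against 844, 809 and 684 FPKM in control libraries, without overlap and by a small margin (0.21 ± 0.15) that turned to -0.056 after scaling to nuclear genes. Uqcrb, a ubiquinone-binding subunit, had 734, 1059 and 664 FPKM in knockout libraries, against 775, 604 and 608 FPKM in control libraries, with control replicate 1 above 2 of the knockout libraries. Cycs, which encodes cytochrome c itself, had 29.2, 26.6 and 26.2 FPKM in knockout libraries, against 26.4, 25.1 and 29.6 FPKM in control libraries, a difference of 0.021 ± 0.12, and its sign turned to -0.080 after rescaling to TPM and -0.082 with median-of-ratios factors.

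Complex IV had a median log2 difference of 0.40 over 13 genes at 3 months, above the other complexes. The median was 0.13 after scaling to nuclear genes and 0.075 after the length correction, under which the ATP synthase stood at 0.076. All 13 were higher in knockout hearts, and 8 did not overlap, against 20.1% of all genes tested. Among other protein-coding genes the share was 48.4% under 750 bases and 45.9% from 750 to under 1500 bases. Cox6a1, the form of subunit VIa made in many tissues, had 209, 329 and 209 FPKM in knockout libraries, against 175, 154 and 155 FPKM in control libraries, or 249 ± 68.9 and 161 ± 12.3 FPKM (SD, n = 3 each). The log2 difference was 0.59 ± 0.19 (adjusted p = 0.182), and knockout replicate 2 stood far above the other 2 knockout libraries. Cox8b, the muscle form of subunit VIII, had 2360.0, 2808 and 2131 FPKM in knockout libraries, against 1907, 1578 and 1454 FPKM in control libraries (0.56 ± 0.17, adjusted p = 0.175). Cox7c, a small subunit with no tissue form in this list, had 347, 494 and 341 FPKM in knockout libraries, against 284, 263 and 242 FPKM in control libraries (0.56 ± 0.17, adjusted p = 0.170). The knockout and control libraries of these 3 genes did not overlap. The remaining 10 genes spanned log2 differences of 0.16 (Cox5b) to 0.50 (Cox7a2), with Cox5a, Cox5b, Cox6b1, Cox7a1 and Cox7b overlapping between the groups.

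Of the 17 ATP synthase genes, 16 were higher in knockout hearts at 3 months, with a median log2 difference of 0.32. The groups of 11 did not overlap, with every knockout library above every control library, against 20.1% of all genes tested. Among other protein-coding genes the share was 48.4% under 750 bases and 45.9% from 750 to under 1500 bases. It was 22.2% from 1500 to under 3000 bases and 7.96% at 3000 bases or more, and the 17 genes fall in all of these classes. Atp5e, the small epsilon subunit of the central stalk, showed the largest difference of the whole list. It had 1590.5, 2341 and 1416 FPKM in knockout libraries, against 1235, 746 and 969 FPKM in control libraries, or 1782 ± 491 and 983 ± 245 FPKM (SD, n = 3 each). Every knockout library lay above every control library, although the controls spread widely, and the log2 difference was 0.85 ± 0.24 (adjusted p = 0.151). Usmg5, a small membrane protein of the synthase dimer, had 193, 284 and 196 FPKM in knockout libraries, against 184, 98.2 and 145 FPKM in control libraries (0.67 ± 0.24, adjusted p = 0.209). Atpif1, the inhibitor that stops the synthase from running backwards, had 294, 347 and 296 FPKM in knockout libraries, against 266, 219 and 234 FPKM in control libraries (0.38 ± 0.14, adjusted p = 0.210). Neither gene overlapped between the groups. Atp5a1 and Atp5b, the alpha and beta subunits of the catalytic head, differed by -0.049 and 0.24, and Atp5b was the most abundant transcript of the list, at 5893, 6541 and 5767 FPKM in knockout libraries, against 5236, 5617 and 4559 FPKM in control libraries.

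The library medians show where the difference at 3 months sat. Measured from the control mean, the median of complex IV was 0.33, 0.66 and 0.23 in knockout replicates 1, 2 and 3, against 0.15, -0.052 and -0.093 in control replicates 1, 2 and 3. For the ATP synthase it was 0.27, 0.52 and 0.21 in the knockout libraries, against 0.16, -0.091 and -0.094 in the control libraries. The groups did not overlap in either complex, and knockout replicate 2 was the highest library in both. For complex III the knockout libraries stood at 0.20, 0.49 and 0.13 and the control libraries at 0.21, -0.072 and -0.12, so control replicate 1 matched 2 of the knockout libraries. Complex II overlapped in the same way. Without knockout replicate 2 the median of complex IV was 0.27 and that of complex III 0.16, without control replicate 1 that of complex IV was 0.53, and without control replicate 3 that of complex II was 0.075. The share of summed FPKM held by all mitochondrial DNA genes, which lowers every nuclear gene's share, was 24.9%, 23.8% and 24.0% in knockout libraries and 36.1%, 17.3% and 42.0% in control libraries.

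**Figure D2:**
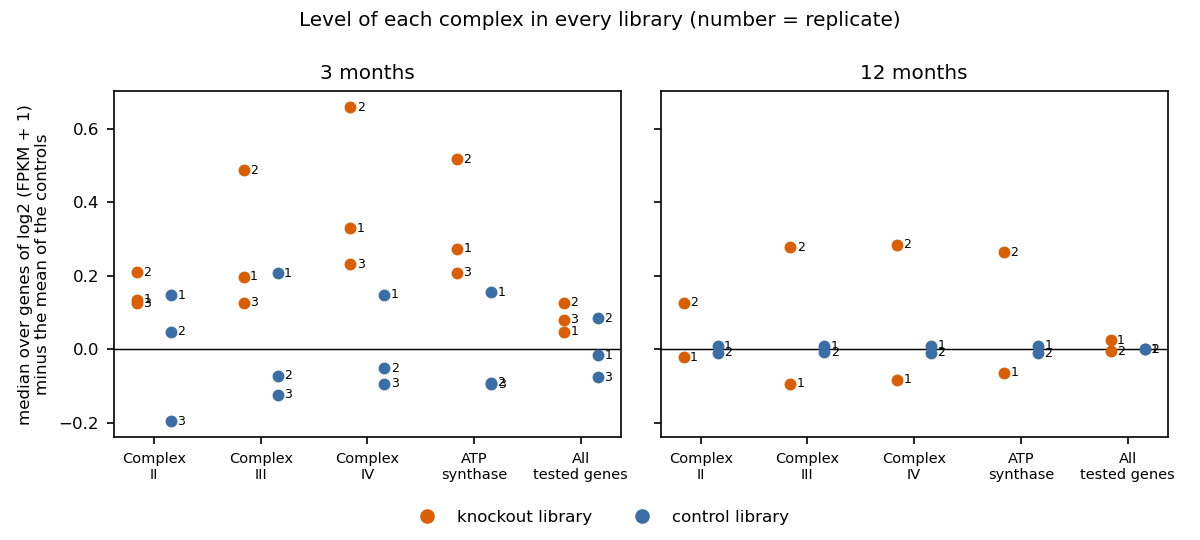
Median over the genes of each complex of log2(FPKM + 1) minus the mean of the controls, 1 point per library with its replicate number, knockout left of control within each complex, at 3 months (left) and 12 months (right). At 3 months complex IV stands at 0.23 to 0.66 in knockout and -0.093 to 0.15 in control libraries, and at 12 months knockout replicate 2 stands apart from knockout replicate 1 in complexes III, IV and the ATP synthase.

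Transcript length moved with the difference at 3 months. Of the 44 genes, 21 have a transcript under 750 bases, and these had a median log2 difference of 0.43. The 287 other protein-coding genes of that length had a median of 0.44, with every knockout library above every control library in 48.4% of them, against 15 of the 21 (71.4%). From 750 to under 1500 bases the medians were 0.28 for 11 of the genes and 0.31 for the other 1515 genes, and from 1500 to under 3000 bases 0.093 for 9 and 0.13 for 3743. At 3000 bases or more they were 0.23 for 3 of the genes and -0.013 for the other 5191. In that class every knockout library lay above every control library in 2 of the 3, against 7.96% of the others. The median of these 3 was 0.18 after the length correction. The small subunits thus lay close to other short transcripts, and Sdha and Atp5a1 (2900 and 2471 bases) were the 2 lowest of the list. Usmg5 and Atp5g1, with assigned lengths of 2733 and 4715 bases, stood above the median for those lengths. Each of the 2 genes has 4 annotated transcripts, and which of them the hearts made was not tested. Across genes, which are not independent and share the same libraries, Spearman's rho of length and difference was -0.59 over the 44 genes and -0.50 over the other 10736. The pattern was strongest in knockout replicate 2, where other transcripts under 750 bases stood 0.73 above the control mean and those of 3000 bases or more stood at -0.039. After each library was corrected for length, the median log2 difference of the 44 genes was 0.048, complexes II and III stood at -0.069 and -0.025, and complex IV and the ATP synthase at 0.075 and 0.076. Usmg5 and Atp5e then had log2 differences of 0.60 and 0.51, the value of Usmg5 resting on its assigned length. Of the 44 genes, 17 were below 0, of which 15 had been above it. These 15 lay between -0.016 (Atp5o) and -0.20 (Cyc1), and among them were Uqcrc1 at -0.18, Sdhd at -0.15, Cox5b at -0.14, Cox6a2 at -0.12 and Atp5c1 at -0.11.

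**Figure D3:**
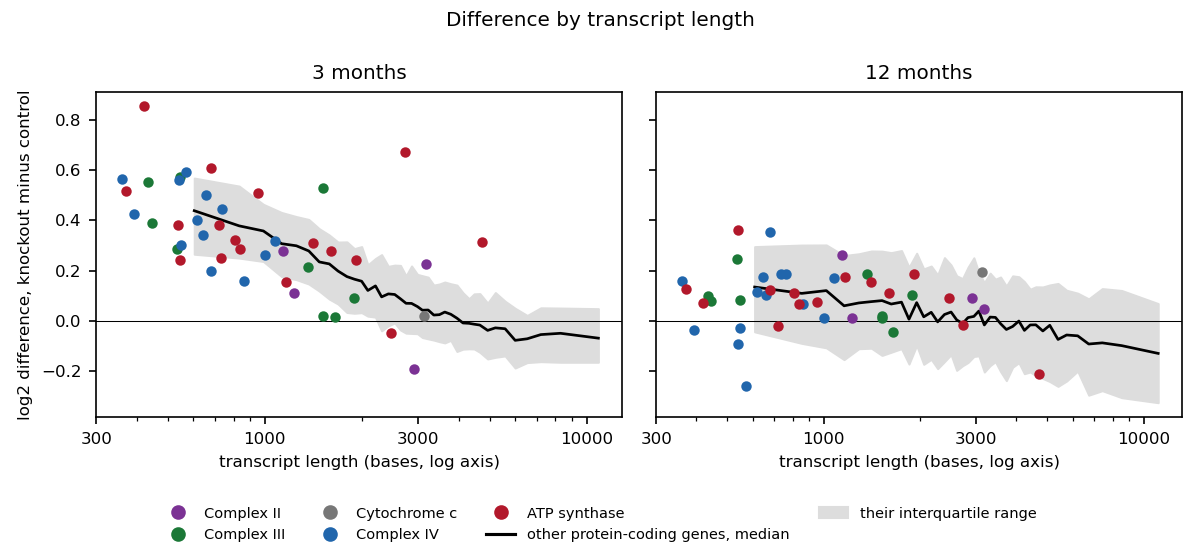
Log2 difference, knockout minus control, against transcript length in bases (log axis) at 3 months (left) and 12 months (right), with 1 coloured point per gene of complexes II to V, a black line for the median of the other protein-coding genes and a grey band for their interquartile range. At 3 months the line descends with length and most coloured points under 750 bases lie near it, and at 12 months it descends less, from 0.13 to -0.036 between the shortest and the longest of 4 length classes.

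At 12 months the genes of complexes II to V differed little between the genotypes, and the direction depended on scaling. Of 43 genes tested, 35 were higher in knockout hearts, with a median log2 difference of 0.10 beside 0.011 over all 13179 genes, but 2 were higher after rescaling to TPM, which moved the median of all genes to -0.27, and 4 after scaling to nuclear genes. The medians of the 43 genes were then -0.22 and -0.12, above the shifted medians of all genes, -0.27 and -0.18. None of the 43 was called, where 0.395% of all genes tested were called, and none had an unadjusted p under 0.05, where 1787 of all genes had. Every knockout library lay above every control library for 13, against 27.3% of all genes tested, and below for 3 (Cox6a1, Cox7c and Atp5g1), against 23% of all genes tested. These were 30.2% and 6.98% of the 43. Atp5g2 and Atp5l averaged under 1 FPKM and were not tested.

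The 2 knockout libraries at 12 months disagreed. Measured from the control mean, the median of the 43 genes was -0.072 in knockout replicate 1 and 0.27 in knockout replicate 2, against 0.010 and -0.010 in control replicates 1 and 2. The complexes went together in this, with complex II at -0.022 and 0.13, complex III at -0.094 and 0.28, complex IV at -0.082 and 0.28 and the ATP synthase at -0.064 and 0.26 in knockout replicates 1 and 2. With knockout replicate 1 left out, 30 of the genes and 4409 of all genes were called, and with knockout replicate 2 left out, 0 of the genes and 654 of all genes were called and 13 of the genes were higher. In such fits the lone knockout library is assumed to vary like the controls, which differed from each other less than the knockout libraries did (robust SD of the log2 ratio 0.113 between the controls and 0.416 between the knockout libraries). The 12-month values were deposited as without outliers, so this spread may be that of a selected set of libraries. Other transcripts under 750 bases showed the same split, at -0.042 and 0.30 in knockout replicates 1 and 2.

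Among single genes at 12 months, the largest differences were those of Atpif1, Cox6a2, Sdhb and Cox6a1. Atpif1 had 288 and 394 FPKM in knockout libraries, against 262 and 262 FPKM in control libraries (0.36 ± 0.19, adjusted p = 0.472). Cox6a2 had 1729.8 and 2133 FPKM in knockout libraries, against 1529 and 1481 FPKM in control libraries (0.35 ± 0.15, adjusted p = 0.417). Both were higher in each knockout library, with replicate 1 closer to the controls. Sdhb had 599 and 845 FPKM in knockout libraries, against 589 and 596 FPKM in control libraries (0.26 ± 0.20), and its difference came almost wholly from knockout replicate 2. Sdha had 1613 and 1509 FPKM in knockout libraries, against 1499 and 1429 FPKM in control libraries (0.092 ± 0.12). The groups of Sdha did not overlap, although Sdha and Sdhb were both negative after rescaling to TPM (-0.23 and -0.061), while those of Sdhc (809 and 960.4 FPKM in knockout and 860.1 and 843 FPKM in control libraries) and Sdhd (439 and 484 FPKM in knockout and 458 and 456 FPKM in control libraries) did. Cycs had 15.9 and 17.6 FPKM in knockout libraries, against 14.7 and 14.4 FPKM in control libraries, a difference of 0.19 ± 0.11 that turned to -0.11 after rescaling to TPM. In complex III, Uqcrb had 531 and 689.6 FPKM in knockout libraries, against 506 and 515 FPKM in control libraries and Uqcrfs1 had 598 and 739 FPKM in knockout libraries, against 588 and 581 FPKM in control libraries. Both lay above the controls, by 0.25 ± 0.17 and 0.19 ± 0.15, and both were negative after rescaling to TPM.

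Of the genes of largest difference at 3 months, Cox6a1 lay below both control libraries at 12 months, and others had knockout libraries on both sides of the controls. Atp5e had 1002 and 1438 FPKM in knockout libraries, against 1168 and 1120.4 FPKM in control libraries, Usmg5 had 40.7 and 50.6 FPKM in knockout libraries, against 43.4 and 48.5 FPKM in control libraries, and Uqcr10 had 942 and 1454 FPKM in knockout libraries, against 1124 and 1061 FPKM in control libraries. In all 3 genes the control libraries lay between the 2 knockout libraries, and the log2 differences were 0.070, -0.015 and 0.10. Uqcrh likewise had 1470.4 and 2025 FPKM in knockout libraries, against 1622 and 1636 FPKM in control libraries (0.083 ± 0.20). Cox7c had 39.8 and 42.9 FPKM in knockout libraries, against 43.9 and 44.3 FPKM in control libraries, so that both knockout libraries were lower by a small margin (-0.090 ± 0.11). The abundant Atp5b had 6058 and 7266 FPKM in knockout libraries, against 5852 and 5819 FPKM in control libraries (0.19 ± 0.15).

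The knockout effect was compared between the ages in 1 model over the 10 libraries. It was lower at 12 months than at 3 months for 36 of the 42 genes tested at both ages, with a median difference of -0.22 on the log2 scale, where the median over all 11580 genes was -0.079 and 59.2% of genes were lower. None of the 42 was called, where 1.38% of all genes tested were called, and 3 had an unadjusted p under 0.05, where 1773 of all genes had. Those 3 were Cox6a1 at -0.85 ± 0.27 (adjusted p = 0.164), Cox7c at -0.65 ± 0.24 (adjusted p = 0.217) and Atp5g1 at -0.53 ± 0.21 (adjusted p = 0.263). Complex IV had the lowest median, -0.29, and complexes II and III stood at -0.058 and -0.061. The median was -0.44 with TPM and -0.11 with median-of-ratios factors, which moved the median of all genes to -0.28 and 0.011. It was -0.087 without knockout replicate 1 of 12 months, -0.34 without knockout replicate 2 of 12 months and -0.14 without knockout replicate 2 of 3 months. After the length correction the median over the 42 genes was -0.032 and 23 were lower, beside a median of 0.0019 over all genes. Ages also differ in library preparation and in how sex-linked genes follow the labels. At 3 months Ddx3y had 17.1, 19.9 and 17.6 FPKM in knockout libraries, against 19.0, 16.7 and 16.5 FPKM in control libraries. Xist was at most 0.490 FPKM in any of these libraries. At 12 months Ddx3y was high in the knockout libraries alone and Xist in the control libraries alone. Age, preparation and sex-linked expression therefore cannot be told apart in this comparison.

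Complex IV and the ATP synthase hold pairs of genes for the same subunit, and their ratio within a library does not depend on how libraries are scaled. Cox6a2, the heart and muscle form of subunit VIa, exceeded Cox6a1 everywhere. At 3 months Cox6a2 had 2643, 2618 and 2538 FPKM in knockout libraries, against 2283, 2468 and 2066 FPKM in control libraries, and the ratio Cox6a2/Cox6a1 was 12.6, 7.97 and 12.1 in knockout libraries, against 13.0, 16.1 and 13.3 in control libraries. The ratio was lower in every knockout library, by 0.39 on the log2 scale, and knockout replicate 2 was far below the rest. At 12 months Cox6a1 had 148 and 172 FPKM in knockout libraries, against 193 and 189 FPKM in control libraries, and the ratio was 11.6 and 12.4 in knockout libraries, against 7.93 and 7.82 in control libraries. It was higher in both knockout libraries, by 0.61 on the log2 scale, and unlike the levels it was alike in the 2 knockout libraries. An exact 2-sided permutation test gave p = 0.1 at 3 months and p = 0.333 at 12 months, the smallest that 3 against 3 and 2 against 2 libraries allow (adjusted over 8 tests 0.4 and 0.444).

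The other pairs moved less. Cox8b, the muscle form, exceeded Cox8a by 5.15, 4.90 and 4.75 in knockout libraries, against 4.69, 3.96 and 3.74 in control libraries at 3 months, a log2 difference of 0.26 without overlap (exact permutation p = 0.1), and by 6.07 and 7.46 in knockout libraries, against 6.22 and 5.63 in control libraries at 12 months, with overlap. Cox8a itself had 458, 573 and 449 FPKM in knockout and 406, 398 and 388 FPKM in control libraries at 3 months, and 254 and 297 FPKM in knockout and 271 and 289 FPKM in control libraries at 12 months. Only at 3 months did its groups lie apart. Cox7a1, the muscle form of subunit VIIa, had 2712, 3424 and 2495 FPKM in knockout libraries, against 2568, 1818 and 2046 FPKM in control libraries at 3 months, and Cox7a2, the form of other tissues, had 377, 511 and 372 FPKM in knockout libraries, against 345, 257 and 284 FPKM in control libraries. Their ratio overlapped at 3 months. At 12 months it was 4.93 and 4.95 in knockout libraries, against 5.47 and 5.41 in control libraries, lower in both knockout libraries by 0.14 on the log2 scale (exact permutation p = 0.333), from 2597 and 3387 FPKM in knockout and 3069 and 3010.0 FPKM in control libraries for Cox7a1 and 527 and 684 FPKM in knockout and 561 and 556 FPKM in control libraries for Cox7a2.

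Atp5g1, Atp5g2 and Atp5g3 encode the same mature c subunit of the membrane ring behind different import sequences. Atp5g3 was the main form, with 2234, 2733 and 2086 FPKM in knockout and 2045, 1678 and 1679 FPKM in control libraries at 3 months and 1976 and 2291 FPKM in knockout and 2207 and 2105 FPKM in control libraries at 12 months. Atp5g1 had 946, 1103 and 909.8 FPKM in knockout libraries, against 879, 792 and 707 FPKM in control libraries at 3 months, all knockout libraries above the controls (0.32 ± 0.15). At 12 months it had 205 and 218 FPKM in knockout libraries, against 237 and 252 FPKM in control libraries, both knockout libraries below the controls (-0.21 ± 0.11, adjusted p = 0.479). The ratio Atp5g1/Atp5g3 was 0.104 and 0.0951 in knockout libraries, against 0.107 and 0.120 in control libraries at 12 months, lower in the knockout libraries by 0.19 on the log2 scale (exact permutation p = 0.333), and it overlapped at 3 months. Atp5g2 was low at both ages, with 2.31, 4.30 and 2.28 FPKM in knockout and 1.37, 3.11 and 2.502 FPKM in control libraries at 3 months, and 0.997 and 0.750 FPKM in knockout and 0.504 and 0.870 FPKM in control libraries at 12 months. Its level is uncertain, since 87.4% of the 50-base windows of its transcript occur in transcripts of other genes, as do 84.8% for Atp5l, 53.0% for Cox7c and 50.3% for Atp5o. A further list held other isoforms of these subunits and also Ndufa4, and none of 4 tested at 3 months and none of 5 at 12 months was called. Its lowest adjusted p at each age was that of the cytochrome c isoform Cyct, which averaged 1.03 and 1.63 FPKM at 3 and 12 months. Cyct was lower in every knockout library at 3 months (-0.65 ± 0.17, adjusted p = 0.124). At 12 months it was higher in both (1.56 ± 0.17, adjusted p = 0.0977). Cycs shares 28.5% of its windows with 76 other genes, while 19 of the 45 genes share under 1%.

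**Figure D4:**
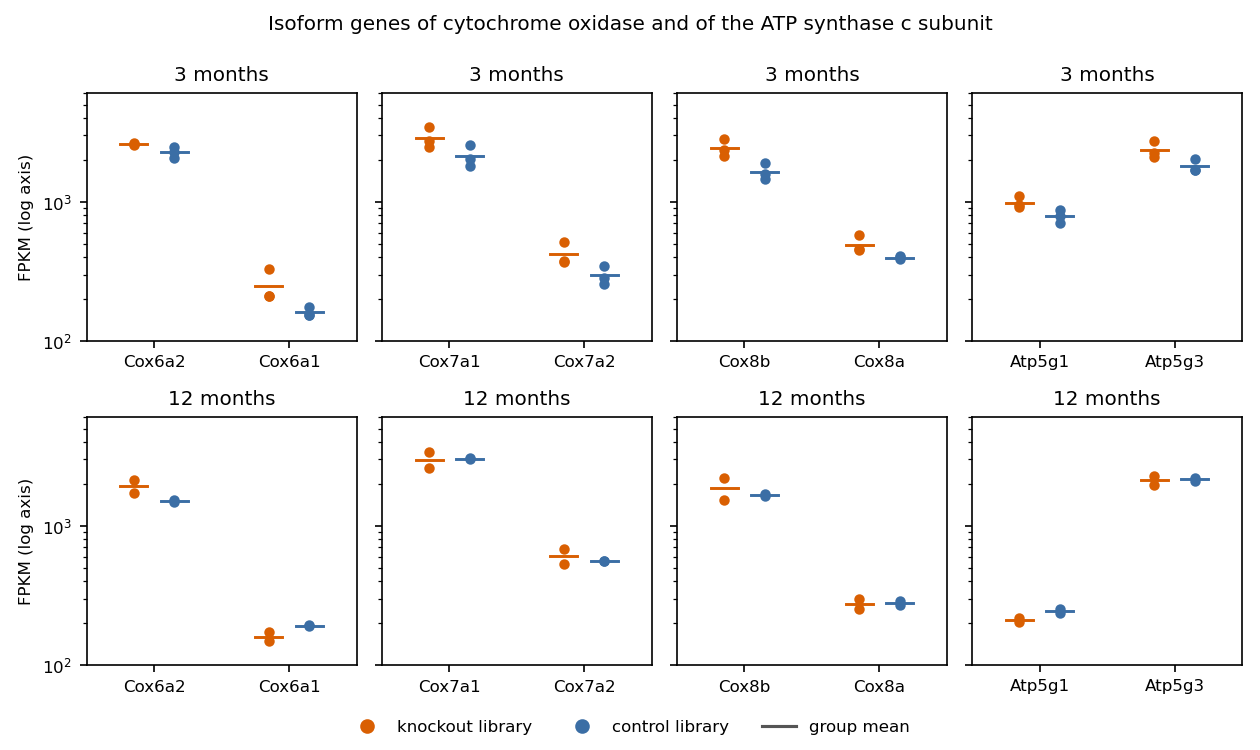
FPKM on a log axis of the 2 genes of each isoform pair in every library, with knockout left of control, bars for the group mean, 3 months above and 12 months below. At 3 months Cox6a1 stands at 209 to 329 FPKM in knockout and 154 to 175 FPKM in control libraries, and at 12 months at 148 to 172 FPKM in knockout and 189 to 193 FPKM in control libraries.

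Genes that build these complexes gave no call at either age. Of the assembly factors, 24 tested for complex IV had 20 higher in knockout hearts at 3 months (median log2 difference 0.33) and 12 at 12 months (median -0.019). Among all genes tested, 65.0% were higher at 3 months (median 0.088) and 51.5% at 12 months (median 0.011). At 3 months the share was 91.6% for other protein-coding genes under 750 bases and 91.3% from 750 to under 1500 bases. The part of transcript length in the counts of assembly factors was not tested. Cox18, which inserts a mitochondrially encoded subunit into the membrane, had 14.5, 11.9 and 11.8 FPKM in knockout libraries, against 7.49, 9.003 and 7.95 FPKM in control libraries at 3 months, without overlap (0.59 ± 0.13, adjusted p = 0.0859). Coa3, which stabilises new Cox1 protein, had 99.1, 109 and 87.6 FPKM in knockout libraries, against 78.0, 63.6 and 66.7 FPKM in control libraries at 3 months (0.50 ± 0.14), and Coa4 differed by 0.45 ± 0.13. At 12 months the copper chaperones Cox17 and Sco1 stood on opposite sides of the controls, Cox17 at 344 and 487 FPKM in knockout libraries, against 280.4 and 272 FPKM in control libraries and Sco1 at 12.4 and 12.4 FPKM in knockout libraries, against 16.4 and 15.04 FPKM in control libraries, and Sco2 differed by 0.57 ± 0.23. For complex III, 3 of 6 assembly factors were higher at each age. Lyrm7, a chaperone of the Rieske protein, was lower in every knockout library, at 7.13, 5.67 and 6.93 FPKM in knockout libraries, against 10.7, 10.1 and 8.28 FPKM in control libraries at 3 months, and at 11.1 and 11.7 FPKM in knockout libraries, against 18.7 and 14.5 FPKM in control libraries at 12 months (differences of -0.50 ± 0.14 and -0.50 ± 0.16, adjusted p = 0.144 and 0.329). Uqcc3, needed to make cytochrome b, was higher in every knockout library, by 0.48 ± 0.13 at 3 months and 0.25 ± 0.11 at 12 months. For complex II, 4 of 4 factors were higher at 3 months and 2 of 4 at 12 months, and Sdhaf1, a chaperone of Sdhb, had 14.5, 15.6 and 14.5 FPKM in knockout libraries, against 12.4, 11.0 and 9.94 FPKM in control libraries at 3 months (0.39 ± 0.12). For the ATP synthase, 1 of 3 was higher at each age.

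Subunits encoded by mitochondrial DNA could be read at 1 age each. At 12 months mt-Cytb, the core of complex III, had 59548 and 55882 FPKM in knockout libraries, against 34010.1 and 34964 FPKM in control libraries, and mt-Co1, the catalytic subunit of complex IV, had 80319.8 and 82643 FPKM in knockout libraries, against 49044 and 49874 FPKM in control libraries. Both were higher in both knockout libraries, by 0.74 ± 0.14 and 0.72 ± 0.14, and neither was called (adjusted p = 0.205 and 0.217). At that age 27.3% of all genes tested were higher in both knockout libraries. Summed FPKM was also higher there, at 1070016 and 1171104 in knockout and 890181 and 897425 in control libraries. All mitochondrial DNA genes held 28.7% and 24.6% of it in knockout and 20.8% and 21.1% in control libraries. Values of mt-Cytb and mt-Co1 under other scalings are not given here. At 3 months both were listed at 0 in all libraries, and at 12 months mt-Co2, mt-Co3, mt-Atp6 and mt-Atp8 were. At 3 months mt-Atp8 had 10980.1, 4578 and 11425 FPKM in knockout libraries, against 13277, 16634 and 16750.2 FPKM in control libraries, lower in every knockout library (-0.90 ± 0.34, adjusted p = 0.221), while mt-Co2, mt-Co3 and mt-Atp6 overlapped.

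Regulators of respiratory genes gave no call among 11 tested at either age, with 5 higher in knockout hearts at 3 months and 4 at 12 months. Gabpa, the DNA-binding subunit of the ETS factor, had 8.09, 7.70 and 8.51 FPKM in knockout libraries, against 8.73, 10.1 and 8.23 FPKM in control libraries at 3 months, and 29.7 and 28.5 FPKM in knockout libraries, against 39.3 and 34.5 FPKM in control libraries at 12 months. Its groups overlapped at 3 months and lay apart at 12 months (-0.33 ± 0.12, adjusted p = 0.373). Yy1, a zinc-finger factor, had 18.0 and 15.8 FPKM in knockout libraries, against 13.5 and 12.4 FPKM in control libraries at 12 months (0.36 ± 0.13, adjusted p = 0.355), and Esrrg, an oestrogen-related receptor, had 12.2 and 10.4 FPKM in knockout libraries, against 8.99 and 8.37 FPKM in control libraries (0.34 ± 0.13, adjusted p = 0.383). Both were higher in both knockout libraries at 12 months, and their groups overlapped at 3 months, with differences of 0.013 and 0.13. Ppargc1b, a coactivator of these receptors, differed by 0.24 ± 0.16 at 3 months, with overlap. Tfam, which packages mitochondrial DNA, had 13.2, 15.05 and 14.7 FPKM in knockout libraries, against 12.6, 12.8 and 10.7 FPKM in control libraries at 3 months (0.24 ± 0.12, adjusted p = 0.331), without overlap.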

How the data were processed

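RNA sequencing of mouse hearts was deposited as FPKM by the authors, 1 table per age and 1 column per library, with no counts. Per the labels' protocols, the younger hearts gave directional poly(A) libraries and the older hearts were prepared and sequenced at an outside institute. The tools listed per the submitters' processing notes are Cufflinks 2.1.1, STAR 2.5.1b, TopHat2 2.1.0 and FastQC, with GRCm38 (mm10) as build. Which tool made which step is not given in these sources. Each age is its own table, so levels were tested within an age.

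Identifiers that occurred more than once in the 3-month table (69) were summed. Identifiers were matched to GENCODE mouse release M21 for symbols and transcript lengths, found for 46297 genes at 3 months and 46484 at 12 months. The length of a gene is that of a single annotated transcript, the principal one where marked, and the longest where several qualified. Within an age, genes averaging 1 FPKM or more were fitted on log2(FPKM + 1) with limma 3.58.1 in R 4.3.3 (group means, empirical Bayes with trend, Benjamini-Hochberg adjustment over all genes tested), and the difference between ages was a contrast over all 10 libraries. Isoform ratios were tested with exact 2-sided permutations. Alternatives were TPM, median-of-ratios scaling, other pseudocounts and filters, no trend, a replicate block and leaving out each library, and, chosen after seeing the data, scaling to the summed FPKM of genes outside mitochondrial DNA and a lowess correction for transcript length. The fits were tested on simulated data. Depth was sought as the setting under which low FPKM values are whole reads. Low values lay within 0.05 of a whole read for 87.2% to 89.0% of genes at 12 months and for 18.9% to 32.3% at 3 months.

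The genes and lists were chosen with earlier results of these data known. All genes of the list may be named. Values per library are given for complex II, Cycs, the isoform pairs, Atp5g2 and Atpif1, and per complex and age for the 2 genes of largest difference and the 1 of lowest p. Atp5b, Cox7c at 12 months and the assembly factors, regulators and mitochondrial genes described are examples, the last 3 kinds from the 3 of lowest p of each list. Of the marker genes, Myl7 and Col3a1 were chosen as examples after their values were seen.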

Additional observations from a re-analysis of the deposited data

Results flagged for a closer look

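In 3 genes every knockout library lay above every control library at 3 months and below every control library at 12 months. Among all genes tested, 20.1% lay above in this way at 3 months and 23% below at 12 months. The share of all genes showing both was not computed, so whether 3 is more than usual was not tested. The difference of the knockout effect, 12 minus 3 months, was -0.85 on the log2 scale for Cox6a1, -0.65 for Cox7c and -0.53 for Atp5g1, and none passed the test over all genes (adjusted p = 0.164, 0.217 and 0.263). The effect of Cox6a1 was -0.26 at 12 months and 0.59 at 3 months, that of Cox7c -0.090 and 0.56, and that of Atp5g1 -0.21 and 0.32. After the length correction these were -0.36 and 0.26, -0.19 and 0.23, and -0.18 and 0.34, that of Atp5g1 resting on its assigned length. The mean level over libraries at 12 and 3 months was 176 and 205 FPKM for Cox6a1. It was 42.7 and 328 FPKM for Cox7c and 228 and 890 FPKM for Atp5g1, so these 2 also differ in level between the ages. Of the 50-base windows of the Cox7c transcript, 53.0% occur in other genes. The ages also differ in library preparation, and sex-linked expression follows the labels at 12 months alone. The part of either in these differences was not tested.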

How the results depend on the processing

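No gene of complexes II to V was called at either age or between the ages under any alternative with all libraries. The genes called among all genes, 91 at 3 months, became 142 with TPM, 59 with median-of-ratios scaling, 10 without a filter, 42 with nuclear scaling, 51 after the length correction and 22 to 81 with 1 library left out. At 12 months 52 became 17 without a filter and 0 to 4409 with 1 library left out, and the genes of the complexes called became 0 to 30. Called differences between the ages, 160, became 289 after the length correction and 40 to 787 with 1 library left out. Replicate numbers did not pair the libraries at 3 months (correlations of same-numbered deviations -0.121, -0.458 and -0.143). At 12 months the correlation was -0.006, a single value, since with 2 libraries per group both same-numbered pairs must give the same number. The fit with a replicate block called 29 genes at 3 months, 40 at 12 months and 55 between the ages. The block and the fit without trend cannot move a difference, so medians were not recomputed under them.

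At 3 months the medians of complexes II, III, IV and the ATP synthase were -0.10, 0.016, 0.13 and 0.053 with nuclear scaling and -0.069, -0.025, 0.075 and 0.076 after the length correction, which left 27 of 44 genes higher, and that of complex IV was 0.27 to 0.53 with 1 library left out. At 12 months they were -0.25, -0.24, -0.21 and -0.21 with TPM (2 genes higher) and -0.15, -0.13 and -0.11 for complexes II to IV with nuclear scaling (4 genes higher). With 1 library left out at 12 months, complex III was at -0.094 to 0.28 and complex IV at -0.082 to 0.28, and 13 to 40 genes were higher.

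Several uncalled genes changed sign, and the cause was not tested. At 3 months nuclear scaling gave Sdhc -0.044, Sdhd -0.16, Uqcrfs1 -0.056, Cycs -0.24 and Cox6a2 -0.073. Cycs was -0.080 with TPM, -0.082 with median-of-ratios scaling and -0.029 to 0.085 with 1 library left out. The length correction gave Sdhd -0.15, Uqcrfs1 -0.025, Uqcrb -0.048, Cycs -0.029, Cox6a2 -0.12, Cox8a -0.031 and Atp5g2 -0.063. At 12 months TPM gave Sdha -0.23, Sdhb -0.061, Sdhc -0.28, Sdhd -0.31, Uqcrfs1 -0.14, Uqcrb -0.078, Uqcrh -0.24, Uqcr10 -0.22, Cycs -0.11, Cox7a2 -0.22, Cox8b -0.17 and Atp5e -0.25. Nuclear scaling gave Sdha -0.12, Sdhc -0.17, Sdhd -0.21, Uqcrfs1 -0.030, Uqcrh -0.13, Uqcr10 -0.12, Cycs -0.010, Cox7a2 -0.11, Cox8b -0.060 and Atp5e -0.15, and the length correction Sdhd -0.064, Uqcrh -0.015 and Atp5e -0.022. Leaving out 1 library at 12 months gave ranges of -0.075 to 0.17 for Sdhc, -0.059 to 0.080 for Sdhd, -0.15 to 0.31 for Uqcrh, -0.21 to 0.41 for Uqcr10, -0.23 to 0.16 for Cox7a1, -0.083 to 0.29 for Cox7a2, -0.14 to 0.085 for Cox8a, -0.10 to 0.42 for Cox8b, -0.19 to 0.33 for Atp5e, -0.13 to 0.088 for Atp5g3 and -0.17 to 0.14 for Usmg5. Apart from the length correction, the isoform ratios kept their direction under every alternative run. With that correction the log2 differences of Atp5g1 and Atp5g3 at 3 months were 0.34 and 0.066, where they had been 0.32 and 0.38. The order of this pair was thus reversed. Depth at 3 months is unknown, and with 3 against 3 and 2 against 2 libraries a difference of this size may be missed.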
